A study of Mus musculus with 24 samples.

Results

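The genes described here encode the machinery of oxidative phosphorylation in HBC-3 cells. They were chosen by symbol: Nduf genes of the a, b, c, s and v series without the Ndufaf assembly factors, Sdh, Uqcr, Cox4 to Cox8 and Atp5 genes, and Cyc1 and Cycs. Of 94 protein-coding genes in the gene table with such a symbol, 54 had a feature on the array, and 51 of these had a value on at least 2 arrays of each day and were tested among 10639 genes and unnamed features in all. By complex, these were 20 of complex I, 6 of complex II, 5 of complex III, 8 of complex IV, 11 of complex V and the electron carrier cytochrome c (Cycs). Atp5md, Cox6a1 and Cox6b2 had too few values, and Cyc1 had no feature. Sdhaf1 and Sdhaf2 fell under the symbol rule but encode assembly factors of complex II, so 49 of the 51 are subunits or cytochrome c.

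HBC-3 is a mouse hepatoblast line, derived from embryonic liver cells able to form hepatocytes or bile duct cells, and Matrigel is a gel of basement membrane proteins. RNA came from cells at day 0 and on each of days 1 to 7 on Matrigel, 24 arrays in all, 3 for each day with the letters A, B or C. Per the labels, the cells are kept on an STO fibroblast feeder layer, which was removed by trypsin and replating, and the RNA was amplified before labelling. Cy5 target of each sample was hybridised against a Cy3 target of undifferentiated HBC-3 cells, so on the day 0 arrays both dyes carried undifferentiated cells. The labels do not say whether arrays of 1 day came from separate cultures, so the p-values measure no more than the spread among arrays, and that may be technical.

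Oxidative phosphorylation takes place in the inner mitochondrial membrane. Complex I accepts electrons from NADH and complex II from succinate, and both pass them through ubiquinone to complex III, which hands them to cytochrome c and so to complex IV, where oxygen is reduced. Protons pumped on the way drive complex V, the ATP synthase. A few subunits of complexes I, III, IV and V are encoded by mitochondrial DNA, and all of the genes described here are nuclear. Hepatocytes are rich in mitochondria, and the nuclear factors NRF1, GABPA, YY1 and ERR-alpha are known to act on many respiratory chain genes.

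Promoter windows from RefSeq (GRCm38.p6) were at hand for 42 of the 51 genes, each with 250 bases before and 50 after a gene start, and were searched on both strands for one short sequence per factor. The NRF1 sequence GCGCATGC stood in 8 of the 42 (19.05%), in Atp5k, Atp5l, Cycs, Ndufa11, Ndufa8, Sdhb, Uqcr11 and Uqcrc1, against 7.05% of 4638 tested genes with a window and 3.05% of 27025 genes in the table. It reads partly into its own reverse complement, and Atp5k, Ndufa11 and Uqcrc1 had overlapping matches on both strands. The YY1 sequence AAGATGGC stood in 7 (16.7%), in Atp5j, Atp5j2, Atp5pb, Ndufc1, Ndufs4, Ndufs6 and Ndufs7, against 6.21% of the tested genes. The ETS family (GABPA) sequence CCGGAAGT stood in Uqcr11 and Uqcrh (4.76% against 10.4%), and the ERR-alpha sequence TCAAGGTCA in Sdhd (2.38% against 0.237%). A match is a description of these letters and not of a bound site.

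The stretch up to just past the start is shown for the subunit and carrier genes whose ratio changed over the course by the test given further on (Cycs, Cox7a2l and Ndufa12) and for a gene that was higher early (Atp5pb) and a gene that was lower late (Ndufa8). They are written 5′ to 3′ along the gene, with the NRF1 or YY1 sequence in capitals. These matches lie on the opposite strand and so read GCATGCGC and GCCATCTT. The Cycs window is chr6:50566565-50566819 (minus strand), that of Cox7a2l chr17:83514329-83514583 (minus), Ndufa12 chr10:94198785-94199039 (plus), Ndufa8 chr2:36049334-36049588 (minus) and Atp5pb chr3:105959259-105959513 (minus). The windows of Cox7a2l and Ndufa12 held none of the 4 sequences.
Cycs: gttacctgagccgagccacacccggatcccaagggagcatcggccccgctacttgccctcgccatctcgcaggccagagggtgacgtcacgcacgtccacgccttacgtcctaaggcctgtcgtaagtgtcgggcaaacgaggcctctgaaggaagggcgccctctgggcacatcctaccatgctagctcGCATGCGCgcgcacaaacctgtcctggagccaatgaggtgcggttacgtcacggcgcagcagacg
Cox7a2l: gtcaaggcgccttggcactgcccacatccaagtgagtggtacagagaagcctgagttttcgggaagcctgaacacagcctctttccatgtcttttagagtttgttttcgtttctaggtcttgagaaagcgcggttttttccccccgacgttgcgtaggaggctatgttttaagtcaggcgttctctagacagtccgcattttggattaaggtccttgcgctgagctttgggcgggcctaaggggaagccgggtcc
Ndufa12: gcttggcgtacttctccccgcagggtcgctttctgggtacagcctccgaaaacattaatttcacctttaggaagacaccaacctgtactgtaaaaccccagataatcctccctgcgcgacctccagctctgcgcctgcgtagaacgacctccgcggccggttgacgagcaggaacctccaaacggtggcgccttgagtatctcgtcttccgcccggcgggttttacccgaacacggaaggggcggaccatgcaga
Ndufa8: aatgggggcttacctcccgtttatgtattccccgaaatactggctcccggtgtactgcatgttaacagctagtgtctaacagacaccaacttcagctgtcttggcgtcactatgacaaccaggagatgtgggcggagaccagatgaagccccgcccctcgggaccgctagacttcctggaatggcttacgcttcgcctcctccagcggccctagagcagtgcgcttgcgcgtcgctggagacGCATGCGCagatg
Atp5pb: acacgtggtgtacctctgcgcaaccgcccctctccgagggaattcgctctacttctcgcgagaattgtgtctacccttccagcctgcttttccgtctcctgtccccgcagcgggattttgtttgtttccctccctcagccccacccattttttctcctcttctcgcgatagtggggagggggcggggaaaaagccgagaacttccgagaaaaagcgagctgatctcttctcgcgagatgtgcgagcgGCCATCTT

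All values are log ratios, taken as log2 of sample over reference with each array's median set to 0, so that 1 is a 2-fold difference and 0 is the array's typical feature. The sources used here do not give the base, the numerator or the normalization, so scale, centring and direction were not settled. Arrays held 12328 to 22149 values of 24157 features, and medians as deposited lay between -0.03 and 0.03. Day 0 array A correlated at 0.76 with day 0 array B but at -0.34 with day 0 array C over features, and at -0.50 with day 3 array B. No direction was settled for such arrays. The members' counts, calls and day 7 medians against day 0 are therefore also given with the ratios of all day 0 arrays changed in sign (day 0 turned). For genes outside the members, this is given only for day 7 results of whole lists and of fibroblast markers. Of 47 members with all 3 day 0 values, 29 (61.7%, against 40.5% of all units) had arrays A and B both above C, and 14 (29.8% against 44.0%) had both below. The members' SD on day 6 array B was 0.99, against 0.28 to 0.76 on the other arrays. Over all tested units that array's SD was 0.96, and array C of days 4 to 7 had 1.01, 1.05, 0.997 and 1.07.

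**Figure D1:**
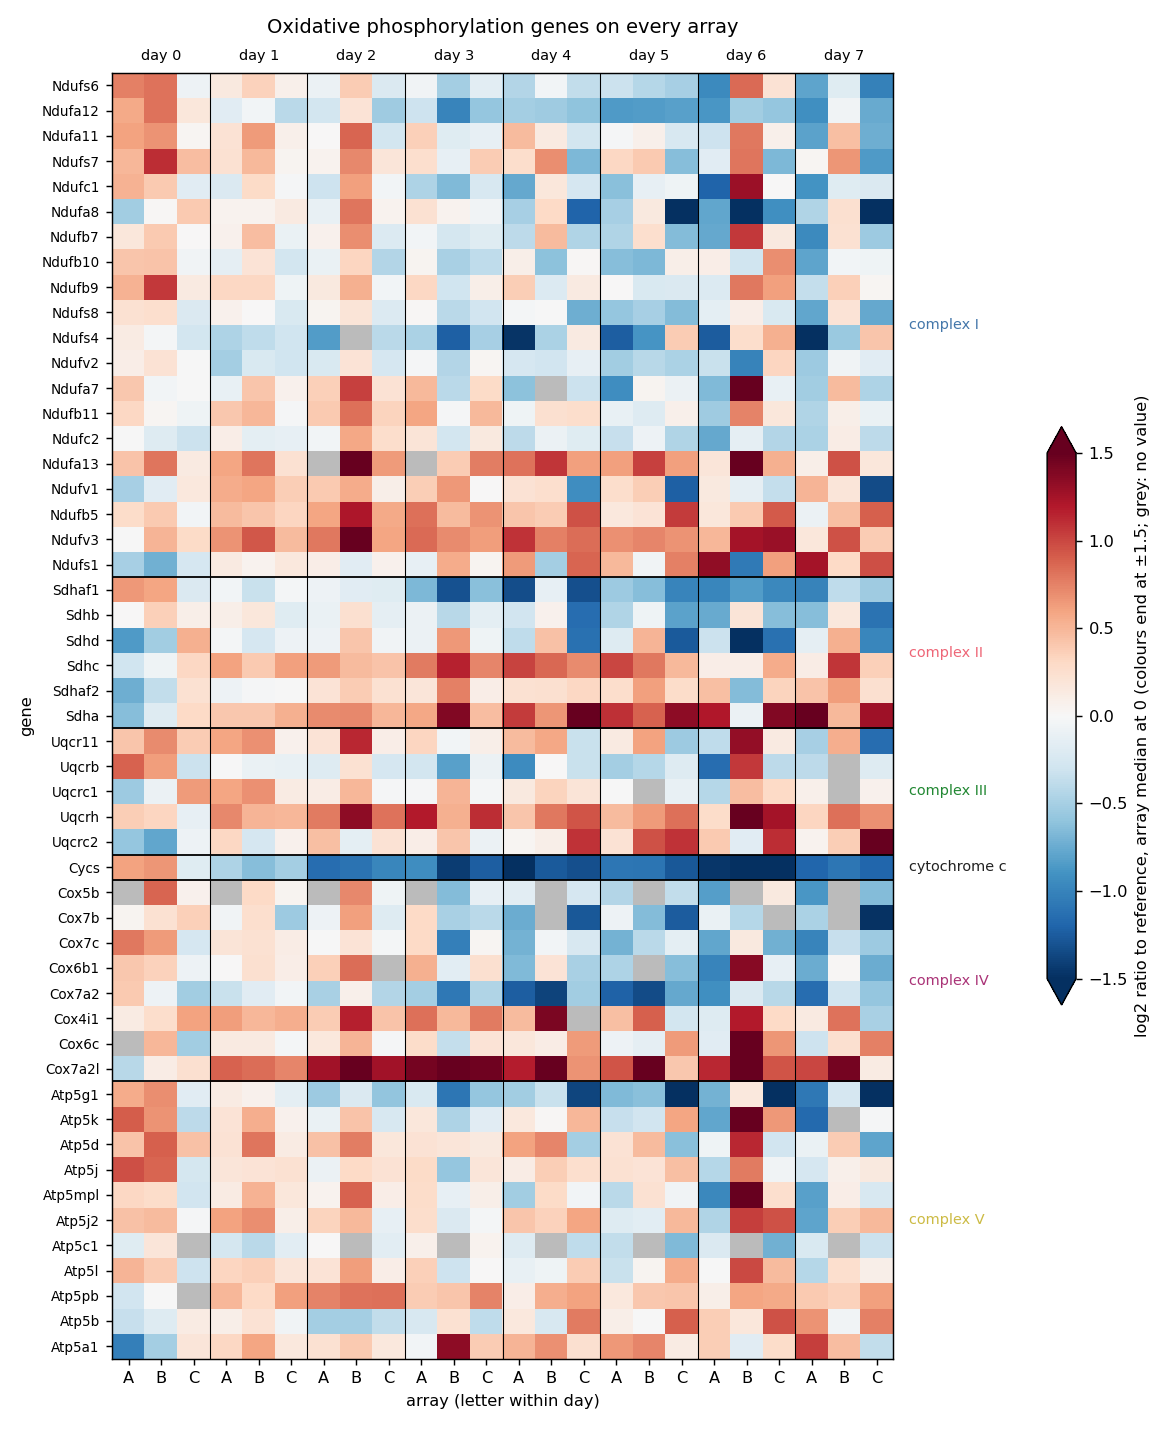
Log2 ratio to the reference of 51 oxidative phosphorylation genes (rows, by complex and by change at day 7) on 24 arrays (columns, by day and letter), with each array's median at 0, colours ending at ±1.5 and grey for no value. Cycs is below 0 on all arrays of days 1 to 7, Cox7a2l is above 0 on them, and most other genes are mixed.

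Most of these genes did not pass the test on any day. Those that passed on 4 or more days were Cycs, the complex I subunit Ndufa12 and the assembly factor Sdhaf1, which were lower, and Cox7a2l and the complex II subunit Sdha, which were higher. With the day 0 signs turned, Ndufa12, Sdhaf1 and Sdha kept no call, and Cox7a2l did not pass at day 7 either way. By limma with Benjamini-Hochberg adjustment over all 10639 units, a threshold of 0.05 and 3 arrays per day, 4 of the 51 (7.84%) changed over the course in an F test of all 8 days, against 16.3% of all units. They were Cycs (adjusted p = 4.14e-05), Ndufa12 (adjusted p = 0.00928), Sdhaf1 (adjusted p = 0.0196) and Cox7a2l (adjusted p = 0.0362). When day 0 was turned, 2 passed, against 10.2% of all units.

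Against day 0, no member was higher on day 1 (4.99% of all units were) and 1 was lower (5.92% of units), with 6 members (11.8%, against 24.5% of units) under an unadjusted p of 0.05. On day 2, 2 were higher (9.05%) and 2 lower (8.04%). The counts on day 3 were 4 higher (12.2%) and 3 lower (12.3%), and those on day 4 were 3 higher (11.3%) and 5 lower (10.9%). On day 5, 4 were higher (11.7%) and 5 lower (11.2%), and on day 6, 4 were higher (12.2%) and 4 lower (12.6%). By day 7, 4 were higher (14.6%) and 8 lower (13.0%), that is 7.84% and 15.7% of the members, so that the share of lower calls lay near the background and that of higher calls below it. Turned day 0 arrays gave 1 higher and 0 lower on day 1 (2.02% and 2.82% of units), 5 and 1 on day 2 (5.00% and 5.42%), 5 and 1 on day 3 (6.41% and 6.43%) and 6 and 2 on day 4 (6.56% and 7.53%). The turned counts were 3 and 2 on day 5 (5.80% and 6.81%), 5 and 2 on day 6 (7.52% and 9.17%) and 0 and 1 on day 7 (5.82% and 5.74%).

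At day 7, 36 of the 51 had a ratio below that of day 0 and 15 above, with a median change of -0.42, against -0.01 over all units. The medians were -0.05, -0.03, -0.18, -0.29 and -0.44 on days 1 to 5. On day 6, 28 stood below day 0 and 23 above, with a median of -0.09. Without day 6 array B, whose spread among the members is given above, the day 6 median was -0.37. With day 0 turned the day 7 median was -0.05, and against the reference channel alone, with no day 0 array, it was -0.22. The day 7 medians by complex were -0.51 for complex I, 0.31 for complex II (0.31 also without the assembly factors), 0.06 for complex III, -0.66 for complex IV and -0.28 for complex V. On day 6 they were -0.13, -0.14, 0.11, -0.30 and 0.22 for complexes I to V, so that complexes II and V lay on the other side of 0 from day 7. Turning day 0 made the day 7 medians -0.06, -0.08, 0.14, -0.25 and 0.16 for complexes I to V, so that the direction for complexes II and V was the opposite one.

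**Figure D2:**
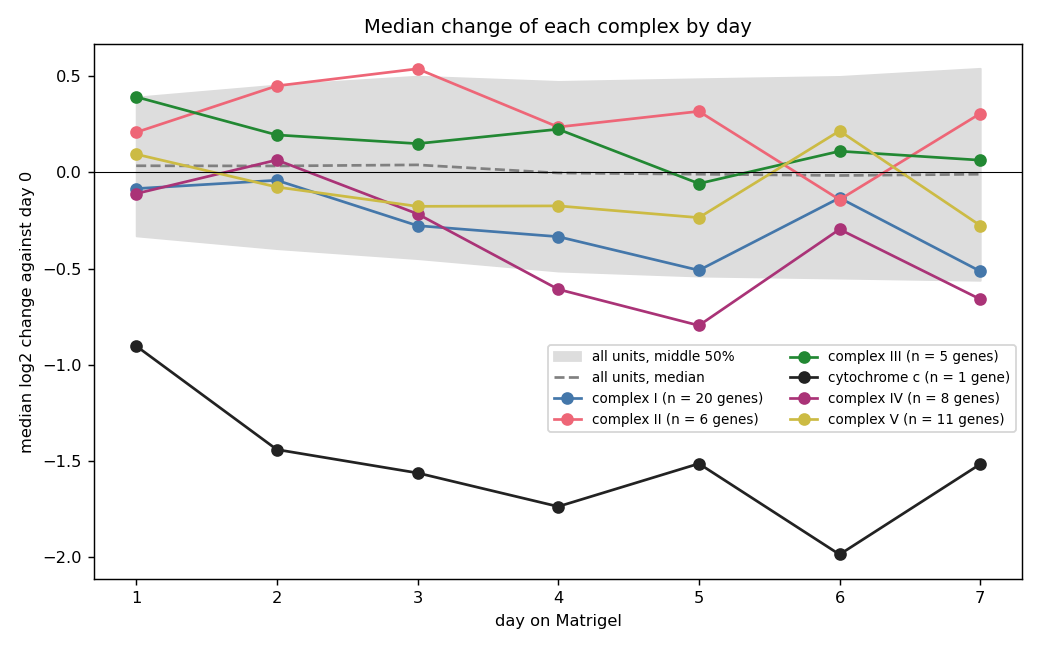
Median log2 change against day 0 (vertical axis) of the genes of each complex on days 1 to 7 (horizontal axis), with the median and the middle 50% of all 10639 units in grey. Medians of complexes I and IV stand at -0.51 and -0.79 on day 5, -0.13 and -0.30 on day 6 and -0.51 and -0.66 on day 7, and Cycs lies between -0.90 and -1.98 on every day.

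Among the 20 genes of complex I, the NADH dehydrogenase, 2 were lower at day 7 (10%, against 13.0% of all units) and 1 was higher (5%, against 14.6%). Ndufa12, an accessory subunit that joins the NADH-oxidising arm late in assembly, had ratios of 0.57, 0.81 and 0.17 on arrays A, B and C of day 0. The values of day 5 were -0.85, -0.83 and -0.81, and on day 7 -0.92, -0.05 and -0.76. All arrays of days 3 to 7 lay below all of day 0, whereas array B of day 2 (0.20) overlapped them. The change was -0.72 ± 0.25 (SE) on day 2, -1.15 on day 3, -1.07 on day 4, -1.35 on day 5, -1.18 on day 6 and -1.10 ± 0.25 on day 7 (limma adjusted p = 0.0489, 0.00267, 0.00441, 0.000686, 0.00185 and 0.00308). Calls of days 3 to 7 passed without any single array and were lost with day 0 turned (-0.03 to -0.31, and -0.06 on day 7). That of day 2 was lost without day 0 array A (-0.70) or B (-0.58) or day 2 array A (-0.69) or C (-0.56), and also without any of 11 arrays of other days (-0.72). Both features of Ndufa12 ran the same way but differed in size. Feature 3249 had no value on array B of days 4 to 7, so those B ratios come from feature 867 alone. On day 7 feature 3249 stood at -1.05 and -1.21 on arrays A and C, and feature 867 at -0.80, -0.05 and -0.30 on A, B and C.

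Ndufs6, a zinc-binding accessory subunit, had ratios of 0.76, 0.81 and -0.08 on day 0 and of -0.79, -0.18 and -1.01 on day 7, without overlap. Its change was -1.15 ± 0.34 (limma adjusted p = 0.0165). The call was lost without day 0 array A (-1.02) or B (-0.997), without day 7 array C (-0.98), and with day 0 turned (-0.16). Ndufs1, the large iron-sulphur core subunit of the NADH-oxidising arm, went the other way, with -0.49, -0.72 and -0.26 on day 0 and 1.25, 0.30 and 0.97 on day 7. All its day 7 arrays lay above day 0, and the change was 1.33 ± 0.44 (limma adjusted p = 0.0287). On day 6 its array B stood at -1.06 between 1.33 and 0.61 on arrays A and C. The Ndufs1 call was lost without day 0 array A (1.33) or B (1.22), without day 7 array A (1.12) or C (1.27), and with day 0 turned (0.35).

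Ndufv3, an accessory subunit beside the flavin site, passed on day 6 alone, with 0.00, 0.50 and 0.28 on day 0 and 0.49, 1.25 and 1.30 on day 6. Arrays of days 2 to 5 all lay above day 0 without passing, array A of day 6 overlapped it, and the change on day 6 was 0.75 ± 0.27 (limma adjusted p = 0.0432). That call was lost without any day 0 array (0.62, 0.87 and 0.76), without day 6 array B (0.63) or C (0.61), and without any of 5 arrays of other days (0.75), and it was kept with day 0 turned (1.27). The other 16 genes of complex I passed in no comparison with day 0, and their changes at day 7 ran from -0.80 ± 0.35 in Ndufa11 to 0.21 ± 0.29 in Ndufb5.

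Complex II, succinate dehydrogenase, also belongs to the citric acid cycle, and its 4 subunits were divided. Sdha, the flavoprotein that oxidises succinate, had ratios of -0.64, -0.19 and 0.30 on day 0. They were 1.05, 0.66 and 1.62 on day 4, 1.10, 0.89 and 1.34 on day 5, 1.21, -0.09 and 1.39 on day 6 and 1.67, 0.48 and 1.27 on day 7. Every array of days 1 to 5 and 7 lay above day 0 (0.40, 0.40 and 0.53 on day 1), and day 6 array B did not. No change passed on days 1 to 3. The change was 1.29 ± 0.37 on day 4, 1.28 on day 5, 1.01 on day 6 and 1.32 ± 0.37 on day 7 (limma adjusted p = 0.0162, 0.0165, 0.0492 and 0.0119).

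The Sdha call of day 7 was lost when array A of day 0 (1.09) or of day 7 (1.05) was left out. Those of days 4 and 5 were lost without day 0 array A (1.06 and 1.05) or B (1.28 each) and without array C of the day (1.03 and 1.17). The call of day 6 was lost without day 0 array A (0.78) or B (1.00), without day 6 array A (0.82) or C (0.73), and without any of 11 arrays of other days (1.01). Under a turned day 0, Sdha stood at 0.94, 0.93, 0.66 and 0.97 on days 4 to 7, and no call passed.

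Sdhc, a membrane anchor that binds haem and ubiquinone, passed as higher on days 3 to 5. Its ratios were -0.30, -0.06 and 0.32 on day 0, 0.78, 1.15 and 0.73 on day 3, 1.01, 0.86 and 0.70 on day 4 and 1.00, 0.80 and 0.48 on day 5. On days 1 and 2, where no change passed, they were 0.60, 0.40 and 0.61 and then 0.64, 0.47 and 0.43. All arrays of days 1 to 5 lay above day 0, while days 6 and 7 (0.12, 1.07 and 0.36 on day 7) overlapped it. The changes were 0.90 ± 0.24, 0.87 and 0.77 on days 3 to 5 (limma adjusted p = 0.0104, 0.0132 and 0.0246) and 0.53 on day 7 (adjusted p = 0.101). All 3 calls passed with day 0 turned (0.87, 0.84 and 0.74). They were lost without day 0 array A (0.76, 0.73 and 0.63), and also without day 3 array B (0.77) on day 3, day 0 array B (0.85) on day 4 and day 0 array B (0.75) or day 5 array A (0.65) or B (0.76) on day 5. Sdhb, the iron-sulphur subunit, and Sdhd, the other anchor, passed on no day, at -0.68 ± 0.33 and 0.08 ± 0.52 on day 7. Array B of day 6 stood at -2.40 for Sdhd.

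The assembly factors ran in opposite directions. Sdhaf1, which helps to place iron-sulphur clusters in Sdhb, had ratios of 0.65, 0.59 and -0.22 on day 0, -0.67, -1.31 and -0.63 on day 3, -0.97, -0.84 and -0.97 on day 6 and -0.996, -0.38 and -0.53 on day 7. Its arrays lay below day 0 on days 3, 5, 6 and 7, and day 4 array B (-0.12) overlapped. The changes were -1.21 ± 0.30, -1.26, -1.07, -1.27 and -0.97 on days 3 to 7 (limma adjusted p = 0.00661, 0.0049, 0.0143, 0.00417 and 0.0194). Turned, they were -0.53, -0.59, -0.39, -0.59 and -0.30, and none passed. The call of day 3 was lost without day 3 array B (-0.99), that of day 5 without day 0 array A (-0.91) or B (-0.94) or day 5 array C (-0.93), and that of day 7 without day 0 array A (-0.82) or B (-0.85) or day 7 array A (-0.79).

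Sdhaf2, which helps to attach the flavin to Sdha, had ratios of -0.73, -0.37 and 0.22 on day 0 and 0.43, 0.63 and 0.24 on day 7, a change of 0.73 ± 0.27 that lay just past the threshold (limma adjusted p = 0.0491). The call passed in 6 of 24 single-array omissions. Without a day 0 or day 7 array, the losing values were 0.51 and 0.69 (day 0 A and B) and 0.73, 0.63 and 0.82 (day 7 A, B and C). Turned, it was 0.14. These ratios are means of 2 features, and the call was also lost when features were tested singly. On array C, feature 11813 went from 0.33 on day 0 to -0.23 on day 7, while feature 16034 went from 0.12 to 0.71. On arrays A and B both features were higher on day 7.

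Complex III, the cytochrome bc1 complex, had 5 genes tested. Uqcrc2, a core protein of the matrix side, had 3 features. Its mean ratios over those with a value were -0.59, -0.78 and -0.08 on day 0, 0.22, 0.96 and 1.08 on day 5 and 0.05, 0.37 and 1.79 on day 7. Both days lay above day 0, with changes of 1.24 ± 0.40 and 1.22 ± 0.40 (limma adjusted p = 0.0315 and 0.0289). The features disagreed: feature 4713 rose from -1.05, -0.76 and -0.11 on day 0 to 0.24, 0.75 and 1.84 on day 7 and feature 9497 followed it, while feature 385 stood at 0.30 and 0.20 on day 0 arrays A and C and at -0.43 and -0.34 on day 7 arrays A and B, with no value on the others. The ratios of day 0 array B, day 5 array B and day 7 array C are thus means of features 4713 and 9497 alone. Both calls were lost without day 0 array A (1.18 and 1.17) or B (1.09 and 1.07). Day 5 also needed its arrays B (1.13) and C (1.07), and day 7 its array C (0.69). With day 0 turned the changes were 0.27 and 0.26.

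Uqcrh, the hinge protein beside cytochrome c1, had ratios of 0.36, 0.32 and -0.13 on day 0 and of 0.27, 1.67 and 1.25 on day 6. Array A of day 6 overlapped day 0, and the change was 0.88 ± 0.29 (limma adjusted p = 0.0319). On days 1 to 5 all arrays lay above day 0 but no change passed (0.39 to 0.79). The call was lost without day 0 array B (0.94) or C (0.72) or day 6 array B (0.57) or C (0.78), and was kept with day 0 turned (1.25). Uqcr11, Uqcrb and Uqcrc1 passed on no day. Uqcr11, a small subunit, stood lowest at day 7, with 0.41, 0.71 and 0.39 on day 0 and -0.50, 0.55 and -1.14 on day 7, a change of -0.87 ± 0.43 with overlap.

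Cycs, cytochrome c, which carries electrons from complex III to complex IV, was lower than day 0 on every day of the course. Its ratios were 0.61, 0.67 and -0.18 on day 0, -0.46, -0.63 and -0.52 on day 1, -1.14, -1.11 and -0.97 on day 2 and -0.93, -1.43 and -1.23 on day 3. On days 4 to 7 they were -1.53, -1.26 and -1.32, then -1.08, -1.10 and -1.27, then -1.46, -1.82 and -1.57, and finally -1.19, -1.08 and -1.19. No array of any later day reached the lowest day 0 array, and the 3 arrays of a day lay close together. The change was -0.90 ± 0.21 on day 1, -1.44 on day 2, -1.56 on day 3, -1.74 on day 4, -1.51 on day 5, -1.98 on day 6 and -1.52 ± 0.21 on day 7 (limma adjusted p = 0.0095 on day 1 and 4.18e-05 on day 7).

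The Cycs calls of days 2 to 7 passed without any single array and under all 12 other settings tried, with day 0 turned included (-0.71, -0.83, -1.01, -0.78, -1.26 and -0.79). The day 1 call was lost with day 0 turned (-0.17) and without day 0 array A (-0.78) or B (-0.75). Set against the reference channel alone, Cycs stood at -0.54 on day 1 and at -1.15 on day 7 (limma adjusted p = 0.0164 and 8.3e-06). Its NRF1 sequence is the stretch in capitals in the window printed above. Of the other 7 genes with that sequence, none passed at day 7, when 14.6% of all units were higher and 13.0% lower. With so few genes, that count does not set them apart from all units.

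**Figure D3:**
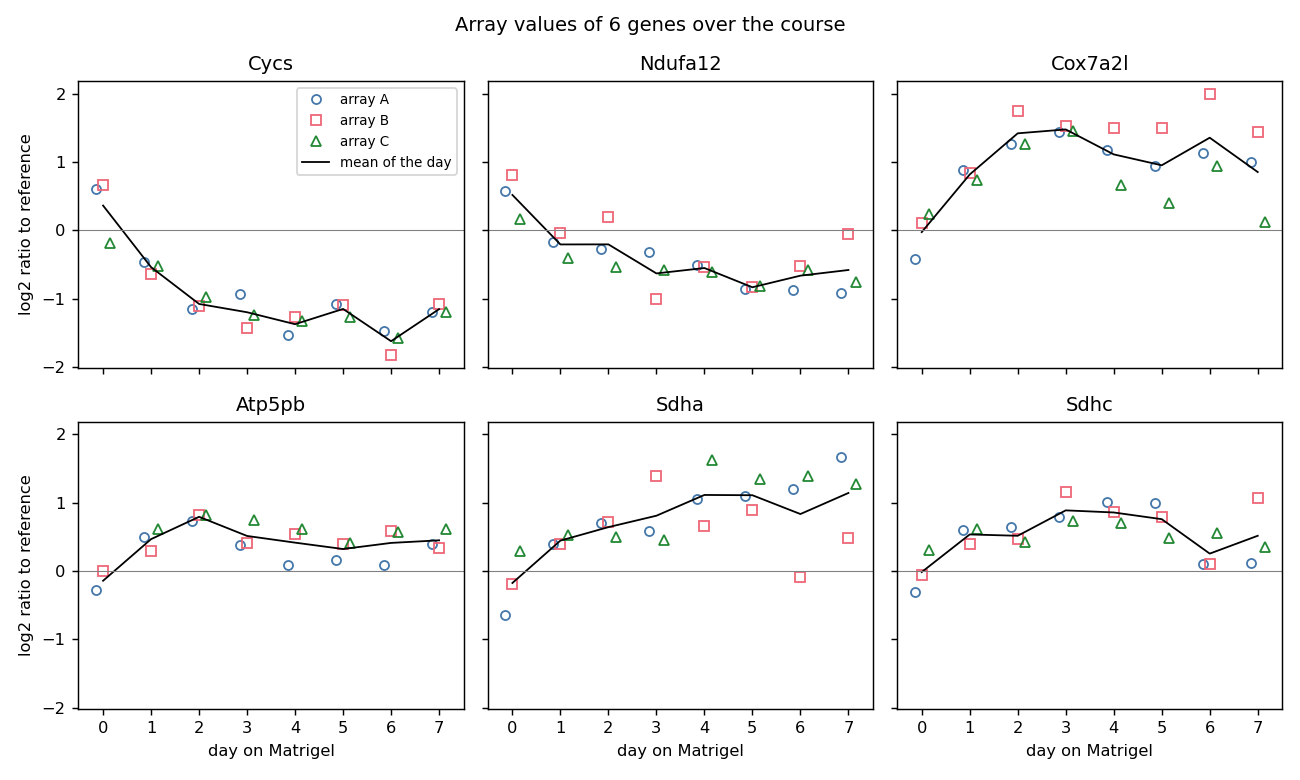
Log2 ratio to the reference (vertical axis) of 6 genes on each array by day (horizontal axis), with circles, squares and triangles for arrays A, B and C and a line through the mean of each day. Cycs falls from 0.61, 0.67 and -0.18 on day 0 to between -1.08 and -1.19 on day 7, while Cox7a2l rises to between 1.44 and 1.53 on day 3.

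Complex IV, cytochrome c oxidase, had 3 of 8 genes lower at day 7 (37.5%, against 13.0% of all units) and none higher (14.6% of units). Cox7a2l, which is known to join complex III and complex IV into supercomplexes more than to act as a structural subunit, rose early. Its ratios were -0.42, 0.11 and 0.24 on day 0, 0.89, 0.83 and 0.74 on day 1, 1.26, 1.74 and 1.26 on day 2 and 1.44, 1.53 and 1.46 on day 3. They were 1.18, 1.49 and 0.67 on day 4, 0.95, 1.50 and 0.41 on day 5, 1.13, 2.00 and 0.94 on day 6 and 1.00, 1.44 and 0.12 on day 7. All arrays of days 1 to 6 lay above day 0, array C was the lowest on days 4 to 7, and only array C of day 7 fell back into the day 0 range.

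The change of Cox7a2l was 0.84 ± 0.34 on day 1, 1.45 on day 2, 1.50 on day 3, 1.14 on day 4, 0.98 on day 5, 1.38 on day 6 and 0.88 ± 0.34 on day 7 (limma adjusted p = 0.116, 0.0059, 0.00347, 0.0199, 0.0402, 0.0054 and 0.0558). The calls of days 2, 3 and 6 passed under every setting and omission, with day 0 turned included (1.40, 1.45 and 1.33). That of day 4 was lost without day 0 array A (0.94) or day 4 array B (0.95) and kept with day 0 turned (1.09). The call of day 5 was lost without day 0 array A (0.78) or B (1.05), day 5 array A (0.98) or B (0.70) or day 3 array C (0.98), and with day 0 turned (0.93). Its window, printed above, held none of the searched sequences.

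The small structural subunits of complex IV went down where they passed. Cox7b had ratios of 0.04, 0.23 and 0.36 on day 0, -0.75 and -1.27 on day 4 arrays A and C and -0.47 and -1.49 on day 7 arrays A and C, array B having no value on either day. Both days lay below day 0, at -1.22 ± 0.38 and -1.19 ± 0.38 (limma adjusted p = 0.0311 and 0.029). Both calls were lost without any day 0 array (-1.11 to -1.30), without array C of the day (-0.95 and -0.68), and with day 0 turned (-0.80 and -0.77).

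Cox5b, which lies on the matrix side and binds zinc, had 0.87 and 0.07 on day 0 arrays B and C and -0.88 and -0.65 on day 7 arrays A and C. Its change of -1.23 ± 0.39 (limma adjusted p = 0.0324) thus rested on 2 arrays a day that shared only letter C. The call was lost without day 0 array B (-0.83) or day 7 array A (-1.11) or C (-1.34), and with day 0 turned (-0.29). It was also lost with the letter fitted as a replicate block. Cox7c had 0.79, 0.64 and -0.26 on day 0 and -0.99, -0.34 and -0.54 on day 7, without overlap, a change of -1.02 ± 0.33 (limma adjusted p = 0.0277). That call was lost without day 0 array A (-0.82) or B (-0.89) or day 7 array A (-0.83) or C (-1.06), and with day 0 turned (-0.24).

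Cox7a2, the liver form of subunit VIIa, was lower on days 4 and 5. Its ratios were 0.40, -0.08 and -0.52 on day 0, -1.23, -1.39 and -0.52 on day 4 and -1.22, -1.34 and -0.77 on day 5. Array C of day 4 overlapped day 0, and day 5 did not. The changes were -0.98 ± 0.30 and -1.04 ± 0.30 (limma adjusted p = 0.0231 and 0.0167), and the calls were kept with day 0 turned (-1.12 and -1.18). They were lost without day 0 array A (-0.75 and -0.81) or B (-0.98 and -1.04), and without day 4 array A (-0.89) or B (-0.81) or day 5 array B (-0.92). Cox4i1, Cox6b1 and Cox6c passed on no day, at -0.18, -0.72 and 0.24 on day 7.

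Complex V, the ATP synthase, had 1 of 11 genes lower at day 7 (9.09%, against 13.0% of all units). Atp5g1, one of the genes for the c subunit of the rotating ring, had ratios of 0.56, 0.69 and -0.16 on day 0 and -0.66, -0.63 and -1.58 on day 5. They were -0.71, 0.15 and -2.22 on day 6 and -1.07, -0.25 and -1.65 on day 7. Array C was the lowest on each of these days, and day 6 array B overlapped day 0. The changes were -1.32 ± 0.46, -1.29 and -1.35 on days 5 to 7 (limma adjusted p = 0.0434, 0.0457 and 0.0338), and with day 0 turned they were -0.59, -0.56 and -0.63 without a call.

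All 3 calls of Atp5g1 were lost without day 0 array A (-1.22, -1.19 and -1.26) or B (-1.15, -1.12 and -1.19). Array C of the day was needed too (-1.01, -0.64 and -1.02 without it), as were day 5 array B (-1.48), day 6 array A (-1.40) and day 7 array A (-1.31). Calls of days 5 and 6 were also lost without any of 7 and 10 arrays of other days. The other 7 genes that stood below day 0 at day 7, Atp5c1 and Atp5d of the rotor and the stalk or small subunit genes Atp5j, Atp5j2, Atp5k, Atp5l and Atp5mpl, lay between -0.23 and -0.99 and did not pass.

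Atp5pb, subunit b of the peripheral stalk that holds the catalytic head still, had -0.28 and 0.00 on day 0 arrays A and B, with no value on C. It had 0.74, 0.82 and 0.82 on day 2, 0.39, 0.41 and 0.74 on day 3 and 0.39, 0.34 and 0.62 on day 7. All arrays of days 1 to 7 lay above both day 0 arrays. The changes were 0.94 ± 0.22 on day 2, 0.66 on day 3 and 0.59 on day 7 (limma adjusted p = 0.0078, 0.0391 and 0.0551). The call of day 2 was lost without day 0 array A (0.79), and that of day 3 without day 0 array A (0.51) or B (0.80) or any day 3 array (0.54 to 0.72). Turned, they were 0.65 and 0.37 without a call.

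Atp5a1, the alpha subunit of the catalytic head, had -1.02, -0.51 and 0.18 on day 0 and -0.04, 1.34 and 0.38 on day 3, with overlap. The change of 1.01 ± 0.36 on day 3 (limma adjusted p = 0.0435) was lost without day 0 array A (0.72) or B (0.98) or day 3 array B (0.62) or C (1.10), without any of 6 arrays of other days (1.01), and with day 0 turned (0.11). At day 7 its arrays stood at 1.04, 0.47 and -0.37, and the change of 0.83 ± 0.36 did not pass. At day 7 the means of Atp5a1, Atp5b (0.60) and Atp5pb stood above day 0 without passing.

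**Figure D4:**
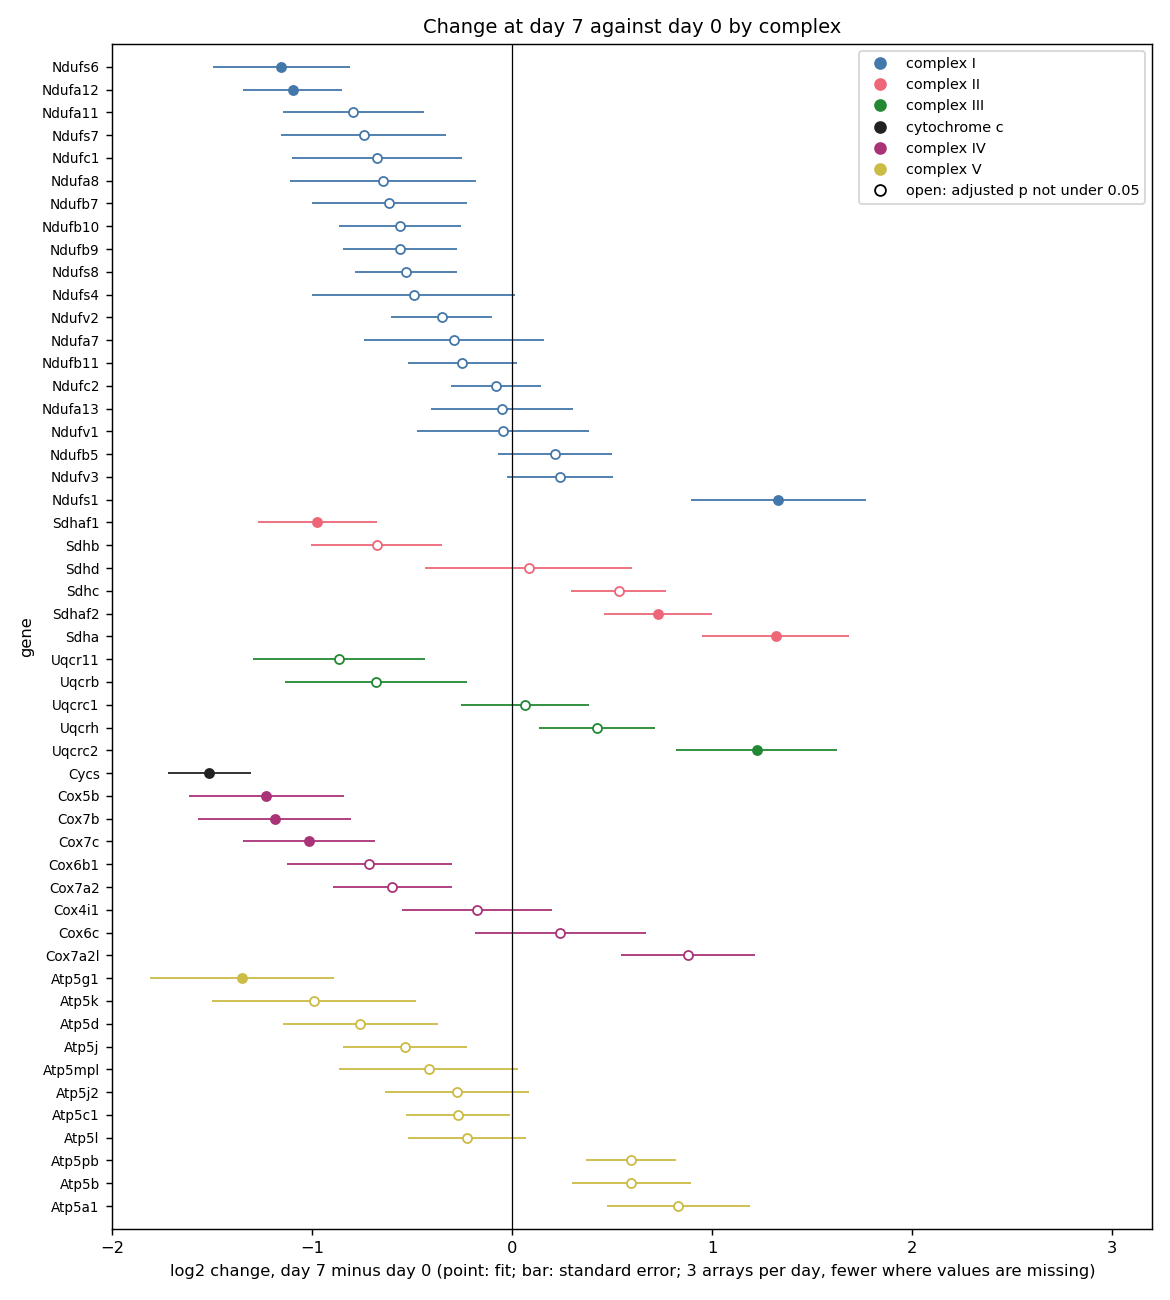
Log2 change at day 7 against day 0 (horizontal axis, point with standard error bar) of 51 genes (vertical axis) coloured by complex, filled where the limma adjusted p was under 0.05. The 8 genes that were lower, from Cycs at -1.52 to Sdhaf1 at -0.97, come from complexes I, II, IV and V and cytochrome c, and the 4 that were higher from complexes I, II and III.

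Days within the course were also compared without day 0. Between days 5 to 7 and days 1 to 3, 1 member was higher (3.51% of units were) and 1 lower (4.23%), with 18 (35.3%, against 26.3% of units) under an unadjusted p of 0.05 and 43 of the 51 (84.3%, against 52.1% of units) below 0. Atp5b, the beta subunit that makes ATP in the catalytic head, was higher by 0.60 ± 0.17 (limma adjusted p = 0.0393). Its ratios were 0.09, 0.22 and -0.06 on day 1, -0.51, -0.51 and -0.37 on day 2 and -0.24, 0.22 and -0.38 on day 3. They were 0.09, -0.01 and 0.89 on day 5, 0.37, 0.17 and 0.95 on day 6 and 0.67, -0.05 and 0.76 on day 7. Array C was above A and B on days 4 to 7, and the days overlapped. With array C of days 4 to 7 left out, the change was 0.38 and did not pass, and it was also lost without any of 13 single arrays (0.50 to 0.62).

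Ndufa8, an accessory subunit of complex I that faces the intermembrane space, changed by -0.94 ± 0.27 between the early and the late days (limma adjusted p = 0.0393). Its ratios were 0.05, 0.06 and 0.14 on day 1, -0.12, 0.80 and 0.05 on day 2 and 0.22, 0.05 and -0.06 on day 3. They were -0.50, 0.14 and -1.52 on day 5, -0.78, -1.59 and -0.92 on day 6 and -0.45, 0.24 and -1.83 on day 7. Arrays B of days 5 and 7 overlapped the early days and the others lay below them. With array C of days 4 to 7 left out it was -0.62 and did not pass, and it was lost without any of 12 single arrays (-0.74 to -0.97). Between day 7 and day 1 no member was higher (1.54% of units) or lower (1.38%), with 6 (11.8%, against 16.7% of units) under an unadjusted p of 0.05. Cycs stood at -0.61 ± 0.21 in that comparison.

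The members varied together only in part. Over the 21 arrays of days 1 to 7, which share days and array-wide shifts, the median correlation of 1269 pairs of members was 0.32, and it was 0.37 for 295 pairs within a complex and 0.30 for 974 pairs between complexes. Within complex IV it was 0.46, within complex I 0.41 and within complex V 0.16. The pair most alike was Atp5mpl and Ndufc1 (0.95), and the pair most opposed was Cox6b1 and Ndufs1 (-0.93). Sdha and Sdhb, partners in the catalytic part of complex II, stood at -0.85. Sdha and Ndufs1 had the lowest median correlation with the other members, -0.51 and -0.50.

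Other genes of mitochondrial energy metabolism were taken from lists written with earlier results of these data known. At day 7, the fatty acid oxidation list had 8 of 12 tested genes higher and none lower, against 14.6% and 13.0% of all units. Its median change was 1.16. Among them were Cpt1a, which admits fatty acids to mitochondria (2.26 ± 0.49, limma adjusted p = 0.00249), Hadhb of the trifunctional protein (1.90 ± 0.41), Acadm (1.88 ± 0.42) and Etfdh, which passes electrons from fatty acid oxidation to ubiquinone (1.15 ± 0.35). With day 0 turned 2 of the 12 were higher and the median was 0.68. With array C of days 4 to 7 left out, 10 were higher, but the share of all units called then is not given. That count is thus not set against all units. The oxidative phosphorylation genes, at a median of -0.42 and 4 of 51 higher, stood lower on the same scale, and that difference was not tested.

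List counts here and below are at day 7, where 14.6% of all units were higher and 13.0% lower. The citric acid cycle and pyruvate dehydrogenase list had 2 of 16 higher and none lower (median 0.14), among them Mdh2, mitochondrial malate dehydrogenase (1.74 ± 0.31). Assembly factors of the chain, which include Sdhaf1 and Sdhaf2, had 4 of 24 higher and 2 lower (median -0.40). Ndufaf2, an assembly partner of complex I, stood at 1.84 ± 0.29 and Oxa1l, the inner membrane insertase, at 1.20 ± 0.28, while Cox10, which makes haem for complex IV, stood at -1.21 ± 0.18. Carriers and channels had 2 of 15 higher and 1 lower, the latter the ADP/ATP carrier Slc25a5 (-1.06 ± 0.22).

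Regulators of mitochondrial genes had 4 of 15 higher and 1 lower, beside the same 14.6% and 13.0% of all units. The lower one was Pprc1, a PGC-1-related coactivator (-1.71 ± 0.41), and the higher ones were Nfe2l2 (1.67), Gabpa (0.92), Yy1 (0.81) and Mterf4 (0.67), whereas Nrf1 stood at -0.53 and did not pass (adjusted p = 0.074). Glycolysis had 1 of 10 higher, the lactate dehydrogenase chain Ldhb (3.26 ± 0.58), and 1 lower, the lactate exporter Slc16a3 (-0.79 ± 0.27), and mitochondrial antioxidant defence had 1 of 6 lower, Gpx1 (-1.01 ± 0.32). With day 0 turned the counts higher and lower were 0 and 0 for the citric acid cycle, 2 and 0 for assembly factors, 0 and 1 for carriers, 0 and 0 for regulators, 1 and 0 for glycolysis and 0 and 0 for antioxidant defence.

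**Figure D5:**
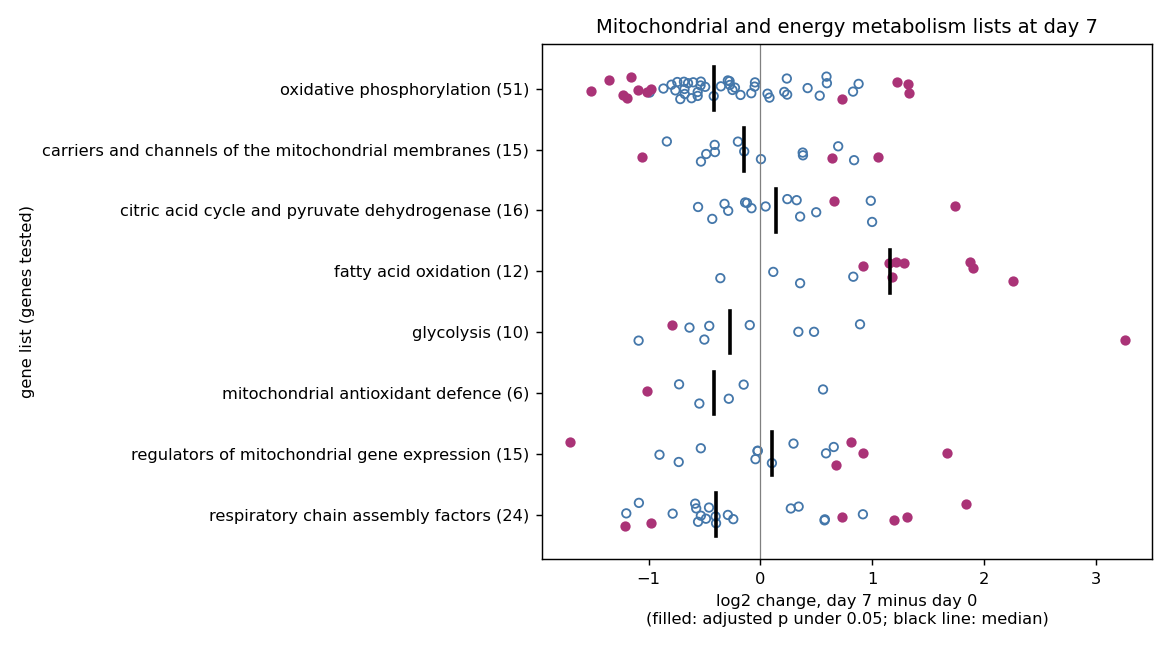
Log2 change at day 7 against day 0 (horizontal axis) of single genes in each list (vertical axis, number tested in brackets), filled where the limma adjusted p was under 0.05, with the list median as a black line and points spread vertically for view. The fatty acid oxidation list has a median of 1.16, and the oxidative phosphorylation genes one of -0.42.

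Some markers of cell types moved over the same days, where 14.6% of all units were higher at day 7 and 13.0% lower. Of 14 fibroblast markers, which would mark the feeder layer, 7 were tested and 3 were higher at day 7, Dcn (6.06), Pdgfrb (1.82) and Prrx1 (0.95), and the list mean per array ran from -0.96 to 0.09 on day 0 and from 0.77 to 1.09 on day 7. The lowest of these 7 stood at -0.16. Between days 5 to 7 and days 1 to 3, 1 of the 7 was higher and 1 lower (3.51% and 4.23% of all units), with a median of -0.34. Day 7 against day 1 also had 1 higher and 1 lower (1.54% and 1.38% of units). The 7 then ran from -1.60 to 4.10, with a median of -0.18. Of 19 hepatocyte and hepatoblast markers, 4 were tested and 3 were higher (Afp 1.93, H19 3.34 and Igf2 1.80), with list means of -0.39 to -0.07 on day 0 and 0.89 to 2.57 on day 7. The remaining tested one stood at -0.38 and did not pass. Of 12 bile duct markers, 3 were tested and Anxa4 was higher (1.27), with list means of -0.15 to 0.12 and -0.12 to 1.22. The lowest of the 3 stood at -0.31 and did not pass. Between days 5 to 7 and days 1 to 3, 1 of the 3 was higher and 1 lower (3.51% and 4.23% of all units). Between day 7 and day 1, 1 was lower (1.38% of units). Blood cell markers had 1 of 3 tested higher (Tyrobp, 2.29), the 1 endothelial marker tested did not pass (0.12), and of 2 smooth muscle markers Mylk was higher (2.10) and Smtn lower (-0.98). With day 0 turned, fibroblast markers had none of 7 higher and 1 lower. The other marker lists are not given with day 0 turned, so their dependence on it is not shown here. Ratios to a reference give no level, so none of these markers could be shown present or absent, and the part of other cells in the values of the respiratory chain genes was not tested. In RNA from whole cultures, fewer cells of a type and less RNA per cell cannot be told apart.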

How the data were processed

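The deposited values are log ratios, 1 per feature and array, taken here as log2 of Cy5 (sample) over Cy3 (undifferentiated reference) from the dyes in the labels. Their scanner, background correction, normalization, log base and numerator were not given in the sources used here. Features were named through GEO's platform annotation: 13319 of 24157 carried 1 symbol, 589 several (left unnamed) and 10249 none, with symbols updated through Entrez IDs. Features of a gene were averaged per array and array medians set to 0. The 10639 units with at least 2 values on each day went into 1 limma model (version 3.58.1, under R 4.3.3; lmFit and eBayes with 8 day groups and all 24 arrays), 2-sided, with Benjamini-Hochberg adjustment over all units and a threshold of 0.05. Every day against day 0 shares the same 3 day 0 arrays.

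Members, lists, motifs and tests were chosen with earlier results of these data known. Members past the threshold in any comparison, and the highest and lowest of each complex at day 7, are described by array; genes outside the members are named only from the lists, past the threshold, except Nrf1, which was added after its value was seen. Simulated data for day 7 versus day 0, with 10639 units of which 200 changed, served as a check: the fit recovered 34% of changes of size 1 and 90% of size 2 on the log2 scale, with 6 false calls. The number of arrays limits the precision. Alternatives covered centring, scaling, signs of day 0 arrays, the filter, features, groups fitted, variance model and each array left out.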

Additional observations from a re-analysis of the deposited data

Results flagged for a closer look

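Atp5b was higher on days 5 to 7 than on days 1 to 3 by 0.596 on the log2 scale, and Ndufa8 changed by -0.935 in the same comparison, so that for these genes the change against day 0 differed between the early and the late days by limma's test of the difference itself (adjusted p = 0.0393 for each), in which the day 0 arrays cancel. Neither passed with array C of days 4 to 7 left out, as given above.

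In the mean of the 2 features of Atp5b, every array on day 6 lay above all day 0 arrays (change 0.633), and every array on day 2 lay below them. Feature 28296 did the same. Feature 3154 overlapped day 0 on both days, with day 6 array B at -0.02 and day 0 array C at 0.25, and day 2 array C at -0.17 and day 0 array A at -0.25. That opposite movement was not tested, and neither day passed against day 0.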

How the results depend on the processing

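Of 51 calls of members, in 21 genes, 16 passed in every single-array omission and 9 of these also under every other setting tried: Cycs on days 2 to 7 and Cox7a2l on days 2, 3 and 6. Turning the sign of all day 0 arrays gave 5 calls on day 5, 1 on day 7 and 2 over the course (reported 9, 12 and 4), moved the day 7 medians to -0.0592 (complex I), -0.0783 (complex II), 0.161 (complex V) and -0.786 (cytochrome c), and reversed Ndufa12 on day 2 (0.316) and Ndufb9 on day 6 (0.973). Turning day 0 array C alone gave 4, 7 and 14 calls on days 1, 2 and 5, 7 over the course and a cytochrome c median of -1.63. Scaling the arrays gave 6, 9, 14 and 13 calls on days 1 to 4. Fitting only the compared groups gave 5 calls on day 1, 5 on day 4 and 4 on each of days 5, 6 and 7, with fewer arrays behind the spread. Without the C arrays of days 4 to 7 there were 4 calls on day 1, 7 on day 2 and 0 for days 5 to 7 against days 1 to 3, where testing features singly left 1. Against the reference channel there were 5, 8, 11, 14, 16 and 14 calls on days 1 to 6 and a cytochrome c median of -1.15, in a contrast that leaves out the spread of day 0. With a value required on every array the complex III median was 0.423, over fewer genes. The cause of the other shifts was not tested. Except for all day 0 arrays turned, the share of all units called is not given for the settings here and below. Those counts thus do not set the members against all units.

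With the letter as a replicate block there were 3 calls on day 1, 17 on day 7 and 6 for days 5 to 7 against days 1 to 3, again without the share of all units. It ended 1 reported call at day 7, that of Cox5b (-0.92). Letters were compared by each array's deviations from the mean of its day, over 7947 features with a value on every array. These are not the correlations of whole arrays given above. The letters did not tie the arrays of all days. In these deviations, 52 of 84 same-letter pairs correlated above 0.1 (lowest -0.579, with a day 0 array), and 48 of 63 without day 0. Within days 4 to 7 all 18 pairs did (0.16 to 0.936). Among arrays of other days, 11 of those 12 arrays were closest in these deviations to one of their own letter (17 of 24 over all days). That is a hint from the data and not from the labels. Leaving out single arrays, calls ran from 0 to 2 on day 1, 2 to 6 on day 2, 3 to 12 on day 3, 3 to 11 on day 4, 2 to 15 on day 5, 4 to 11 on day 6, 3 to 15 on day 7, 0 to 6 for late against early days, 0 to 0 for day 7 against day 1 and 1 to 6 over the course. The day 7 medians ran from -0.652 to -0.334 (complex I), -0.0146 to 0.591 (II), -0.209 to 0.266 (III), -0.881 to -0.476 (IV), -0.477 to -0.171 (V) and -1.79 to -1.36 (cytochrome c).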

Other observations

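Among the listed genes outside the respiratory chain itself, some changed within the course, in comparisons that hold no day 0 array. Ndufaf2, an assembly partner of complex I, was higher on days 5 to 7 than on days 1 to 3 by 1.12 ± 0.17 and on day 7 than on day 1 by 1.51 ± 0.29 (limma adjusted p = 0.000747 and 0.00673). Higd2a, which takes part in building complex IV, changed by -1.18 ± 0.23 and Cox10 by -0.47 ± 0.10 between early and late days. The ADP/ATP carrier Slc25a5 changed by -0.57 ± 0.13 in that comparison and by -0.99 ± 0.22 between day 1 and day 7, while Immt, which shapes cristae, rose by 0.62 ± 0.19 between early and late days. Gpx1, glutathione peroxidase, stood lower on the late days (-0.87 ± 0.18) and so did Pprc1 (-0.78 ± 0.24). Pkm, pyruvate kinase, was lower on day 7 than on day 1 (-1.45 ± 0.35, limma adjusted p = 0.0275). In the fatty acid oxidation list, Cpt1a (1.79), Acaa2 (1.19) and Hadh (1.05) were already higher than day 0 on day 1, when 4.99% of all units were. These day 1 values are not given with day 0 turned. No gene of that list passed between early and late days or between day 1 and day 7.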
